A study of Mus musculus with 4 samples.

Results

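The 10 integrin subunit genes examined here were Itgae, Itga4, Itgb7, Itgb1, Itgal, Itgb2, Itgav, Itgb8, Itga6 and Itgb3. They were chosen by name, as integrin alpha and beta subunits of regulatory T (Treg) cells, and each had 1 row among the 24087 rows of the deposited expression table. Splenic Treg cells of C57BL/6 mice at steady state were analysed by RNA-seq after being sorted as CD3+CD4+YFP+, where YFP marks cells that express Foxp3Cre-YFP. Mice of genotype Foxp3Cre-YFPSetd2f/f (KO) lack both functional Setd2 alleles in Foxp3-expressing cells, and their Foxp3Cre-YFPSetd2f/+ littermates (CTRL) carry the same Cre and 1 floxed allele, so CTRL cells are not wild type. Setd2 is the methyltransferase that places the histone mark H3K36me3. There were 2 libraries per genotype, named CTRL 1, CTRL 2, KO 1 and KO 2, and each held about 1000000 cells pooled from 2 mice.

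Integrins are cell surface receptors made of 1 alpha and 1 beta chain, and the pairing decides the ligand. On T cells, αL pairs with β2 to form LFA-1, which binds ICAMs during contact with other cells. The α4 chain pairs with β7 to bind MAdCAM-1 on gut vessels or with β1 to bind VCAM-1 and fibronectin, and αE pairs with β7 to bind E-cadherin on epithelium. The α6 chain pairs with β1 to bind laminins, and αv pairs with β1, β3 or β8, of which αvβ8 releases active TGF-β from its latent complex. These pairings are background knowledge. The libraries measured RNA only, and chain pairing at the cell surface was not measured.

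Expression was given as FPKM, a fragment count divided by gene length and library size, which allows levels of different genes to be set side by side. The reads recovered from the steps of the FPKM values numbered at least 29641552 to 32376294 per library. The values of the targeted gene, Setd2, a whole-gene measure that does not separate the deleted exons, were 23.4 and 25.3 FPKM in CTRL and 21.3 and 19.5 FPKM in KO. The KO values were the lower ones in this gene, and the difference of −0.24 on the log2(FPKM + 1) scale did not pass the test (limma, adjusted p = 0.0970). Of the 9 T cell and Treg markers examined, Foxp3, the lineage factor of Treg cells, was present at 112 to 140 FPKM and Cd3e, a chain of the T cell receptor complex, at 220 to 251 FPKM. Markers of other cells were also present, and those of myeloid cells were not low, with Lyz2, the lysozyme of macrophages, at 60.0 to 153 FPKM and Csf1r at 16.7 to 34.9 FPKM. Summed over the lists, the 9 myeloid markers came to 155 to 360 FPKM, the 7 B cell markers to 22.0 to 41.3 FPKM, the 4 erythroid markers with a row to 4.16 to 38.4 FPKM, the 2 CD8 T cell markers to 8.49 to 11.4 FPKM, the 4 NK cell markers to 3.80 to 5.93 FPKM and the 8 platelet markers to 4.96 to 6.04 FPKM. In these lists Cd79b reached 16.0 FPKM among the B cell markers, and no platelet marker was above 2.19 FPKM.

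The integrin subunits spanned a wide range of levels in both genotypes. In CTRL, the order of mean FPKM was Itgb7, Itgb2, Itgal, Itgb1, Itga4, Itgae, Itga6, Itgb3, Itgav and Itgb8, from 393 ± 17.2 (SD, n = 2) for Itgb7 to 5.68 ± 0.0218 (SD, n = 2) for Itgb8. The KO libraries gave the same order except that Itga6 and Itgae changed places. The ranges of neighbours in this order overlapped for Itgae and Itga6 and for no other neighbours, in either genotype. Itgb7 ranked 155 by mean FPKM among the 11399 genes tested, whereas Itgb8 ranked 8254. The summed FPKM of the 10 genes was 1186 and 1226 in CTRL 1 and CTRL 2 and 1267 and 1345 in KO 1 and KO 2.

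**Figure D1:**
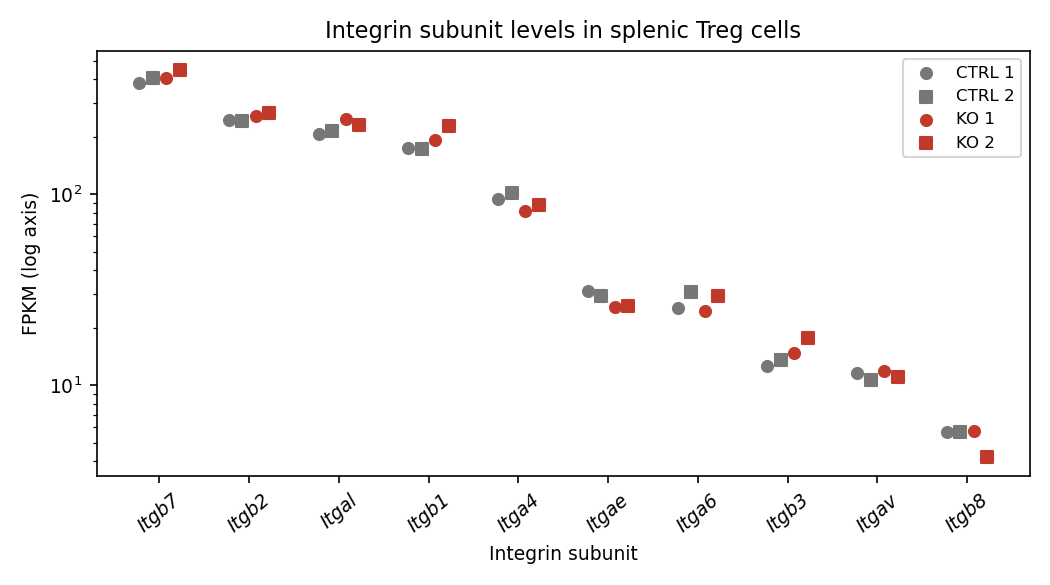
FPKM (log axis) of the 10 integrin subunits in each library, ordered by the CTRL mean, with CTRL in grey and KO in red, circles for library 1 and squares for library 2. Itgb7, Itgb2, Itgal and Itgb1 sit above 170 FPKM in every library, Itga4 at 81.3 to 101 FPKM, and Itgb8 at or below 5.72 FPKM.

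KO was compared with CTRL by limma on log2(FPKM + 1) over the 11399 genes that reached 1 FPKM in at least 2 libraries, with p adjusted over all of them by the Benjamini-Hochberg method. The 10 integrin subunits all passed this filter on level, which made no use of genotype. None of the 10 passed the threshold of adjusted p under 0.05 (limma), beside 5.10% of all genes tested that were higher and 4.65% that were lower in KO. At an unadjusted p under 0.05, 3 of the 10 were higher (Itgb1, Itgal, Itgb3), beside 16.3% of all genes tested, and 2 were lower (Itgae, Itga4), beside 18.4%. Both KO libraries lay above both CTRL libraries for 5 of the 10 (Itgb7, Itgb2, Itgal, Itgb1, Itgb3), beside 29.0% of all genes tested, and below them for 2 (Itgae, Itga4), beside 35.5%. The median difference of the 10 was 0.07 on the log2 scale, beside −0.02 over all genes tested. No subunit passed by limma-voom on the recovered reads either. With 2 pooled libraries per genotype, p-values weigh a difference against the spread between these libraries, which limma adjusts toward a trend over all genes. In bulk RNA fewer cells of a type cannot be told apart from less RNA per cell.

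**Figure D2:**
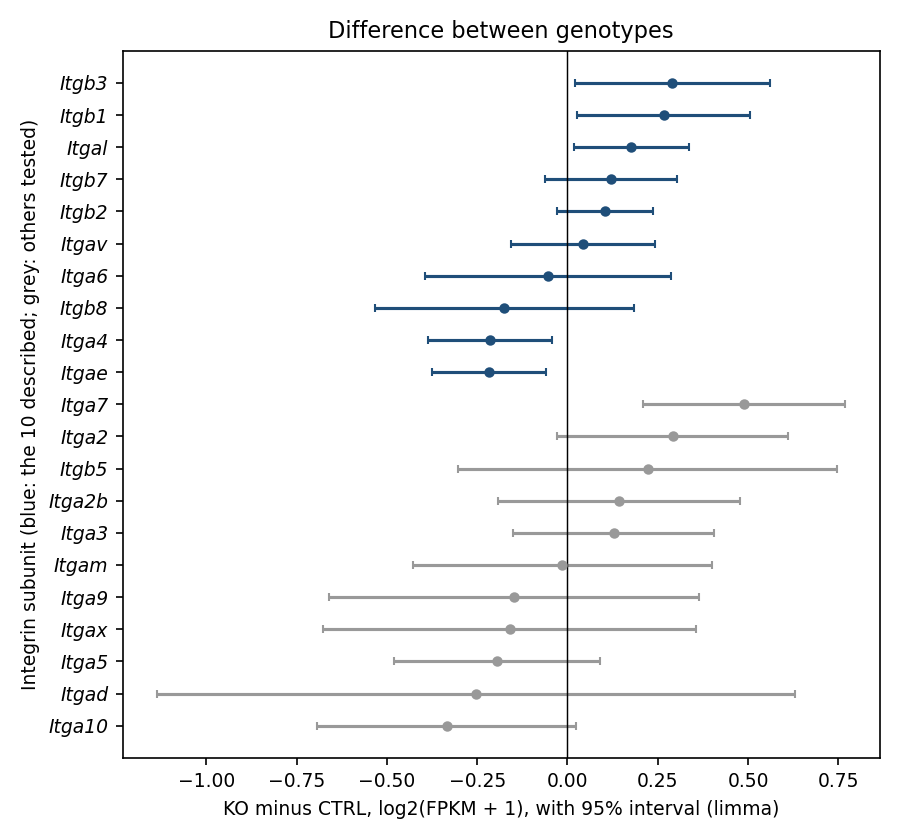
Difference between KO and CTRL on the log2(FPKM + 1) scale with the 95% interval of limma, for the 10 integrin subunits (blue) and the 11 other integrin subunits tested (grey). The intervals of Itgb3, Itgb1, Itgal and, among the others, Itga7 lie above 0 and those of Itga4 and Itgae below 0, although none passed after adjustment over all genes.

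Among the chains of the α4 and αE integrins, KO values were lower for the alpha chains Itgae and Itga4. They were higher for the beta chains Itgb7 and Itgb1, with none past the threshold. Itgae, which encodes αE (CD103) and lies at chromosome 11, 73090583 to 73147446 (GRCm38), was measured at 31.2 and 29.3 FPKM for CTRL 1 and CTRL 2 and 25.8 and 26.0 FPKM in KO 1 and KO 2. Both KO libraries were lower than both CTRL libraries, by more than the gap within either genotype. The difference was −0.22 on the log2 scale (SE 0.062, 95% interval −0.38 to −0.06), which did not pass the test (limma, adjusted p = 0.0793). Haspin, a gene that lies within the body of Itgae and shares no exon with it, was at 9.87 to 11.3 FPKM, with overlapping groups.

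Itga4, which encodes the α4 chain and lies at chromosome 2, 79255426 to 79333123, was at 94.6 and 101 FPKM for CTRL 1 and CTRL 2 and 81.3 and 87.3 FPKM in KO 1 and KO 2. As with Itgae, the groups did not overlap and KO was the lower one. The difference was −0.21 (SE 0.067, 95% interval −0.39 to −0.04, limma adjusted p = 0.0946). Itga4 was the longest of the 10 by annotated exons, with 13978 bases, and its difference was −0.09 (adjusted p = 0.395) once each library's trend with exon length was removed and −0.31 (adjusted p = 0.0485) after quantile normalization, the 1 setting among 15 that called any of the 10. Its exons also overlap those of Cerkl on the other strand over 1124 bases. Cerkl was at 1.62 to 2.44 FPKM and its KO libraries were the higher ones, and the strand setting of the counting was not given.

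Some markers of the sorted cells lay lower in KO, as Itgae and Itga4 did, and others did not. Of the 9 T cell and Treg markers, 5 (Foxp3, Il2ra, Cd3d, Cd3g, Cd4) had both KO libraries below both CTRL libraries, beside 35.5% of all genes tested. For 1 (Ikzf2) both lay above, beside 29.0%. Ikzf2 was at 74.9 and 74.2 FPKM in CTRL and 81.6 and 87.0 in KO (0.17, limma adjusted p = 0.106). The groups overlapped for Ctla4 (0.12), Tnfrsf18 (0.10) and Cd3e (−0.03). Il2ra, the alpha chain of the IL-2 receptor, was at 123 and 148 FPKM in CTRL and 95.4 and 117 in KO (−0.35, limma adjusted p = 0.138), and Cd3g differed by −0.19 (limma adjusted p = 0.103). None of the 9 passed the threshold by limma or limma-voom. Il2ra passed under 1 of 15 alternatives, limma with a block for the replicate number (adjusted p = 0.0205). At an unadjusted p under 0.05, 2 of the 9 were lower, beside 18.4% of all genes tested, and 1 was higher, beside 16.3%. The part of these shifts in the values of Itgae and Itga4 was not tested.

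Itgb7 encodes β7, the partner of both α4 and αE, and lies at chromosome 15, 102215995 to 102231944. It was the most abundant subunit, at 381 and 405 FPKM for CTRL 1 and CTRL 2 and 408 and 446 FPKM in KO 1 and KO 2, with at least 33386 reads per library. The KO values lay above the CTRL values, but CTRL 2 and KO 1 were closer to each other than to the other library of their genotype. The difference was 0.12 (SE 0.071, 95% interval −0.06 to 0.30, limma adjusted p = 0.291), with 0.04 after quantile normalization and 0.06 to 0.18 when 1 library was left out.

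Itgb1 encodes β1, the shared partner of α4, α6 and αv, and lies at chromosome 8, 128685654 to 128733200. Its values were 174 and 173 FPKM in CTRL, with KO 1 at 191 and KO 2 at 228 FPKM. The CTRL libraries were almost identical, whereas KO 2 stood well above KO 1. The difference was 0.27 (SE 0.093, 95% interval 0.03 to 0.51), which did not pass the test (limma, adjusted p = 0.118). It was 0.14 without KO 2 and 0.15 after quantile normalization.

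The sequences before the starts of Itga4, Itgb1 and Itgb7 are shown because these 3 genes encode the chains of α4β7 and α4β1, whose RNA ratios are described in a later paragraph. No annotated exon covers the bases shown. They are taken from RefSeq on GRCm38.p6, which gave such a window for 5 of the 10 genes, and are written 5′ to 3′ on the gene's strand at chr2:79255176-79255425 (+), chr8:128685404-128685653 (+) and chr15:102231945-102232185 (−). Capitals mark matches on either strand to 4 motifs, namely a GC box (GGGCGG), an ETS core (CCGGAA), a RUNX core (TGTGGT) and a TATA box (TATAAA).
Itga4: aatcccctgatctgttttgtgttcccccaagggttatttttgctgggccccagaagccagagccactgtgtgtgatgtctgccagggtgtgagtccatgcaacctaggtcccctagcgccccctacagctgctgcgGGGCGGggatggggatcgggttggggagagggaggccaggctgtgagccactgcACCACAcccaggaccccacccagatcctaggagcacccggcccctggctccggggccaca
Itgb1: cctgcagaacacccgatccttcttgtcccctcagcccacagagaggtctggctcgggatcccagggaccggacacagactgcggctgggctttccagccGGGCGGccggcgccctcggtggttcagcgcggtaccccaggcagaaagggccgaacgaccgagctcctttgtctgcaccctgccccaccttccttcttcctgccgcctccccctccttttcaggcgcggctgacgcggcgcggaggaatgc
Itgb7: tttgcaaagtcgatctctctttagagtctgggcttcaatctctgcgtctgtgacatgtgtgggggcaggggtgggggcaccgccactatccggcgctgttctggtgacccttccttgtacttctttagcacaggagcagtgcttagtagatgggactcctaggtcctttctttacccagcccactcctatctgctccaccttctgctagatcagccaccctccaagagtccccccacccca

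Among 32851 promoter windows of 250 bases, 32.74% held the GC box, 12.03% the ETS core, 14.05% the RUNX core and 12.37% the TATA box. Itga4 held 1 GC box beginning 114 bases before the start and 1 RUNX core on the opposite strand 60 bases before it. Itgb1 held 1 GC box beginning 151 bases before the start, and Itgb7 held none of the 4. A match describes the letters only, and no binding was measured.

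The chains of LFA-1 were abundant and close to each other in level. Itgal, which encodes αL and lies at chromosome 7, 127296260 to 127335138, was at 206 and 214 FPKM for CTRL 1 and CTRL 2 and 247 and 229 FPKM in KO 1 and KO 2. Both KO libraries were higher than both CTRL libraries. The difference was 0.18 (SE 0.062, 95% interval 0.02 to 0.34, limma adjusted p = 0.118), and 0.05 (adjusted p = 0.564) after quantile normalization. Itgb2, which encodes β2 and lies at chromosome 10, 77530252 to 77565708, was at 245 and 242 FPKM for CTRL 1 and CTRL 2 and 258 and 266 FPKM in KO 1 and KO 2. Its KO values were again the higher ones, with a difference of 0.10 (SE 0.052, 95% interval −0.03 to 0.24, limma adjusted p = 0.223), and quantile normalization turned this difference to −0.01.

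The remaining alpha chains showed little difference between genotypes. Itga6, the laminin-binding chain, at chromosome 2, 71745616 to 71858416, was at 25.2 and 30.7 FPKM for CTRL 1 and CTRL 2 and 24.3 and 29.4 FPKM in KO 1 and KO 2. The second library of each genotype was the higher one and the groups overlapped, with a difference of −0.06 (SE 0.133, 95% interval −0.40 to 0.29, limma adjusted p = 0.801) whose sign turned without CTRL 2 or without KO 1. Of the 100-base stretches of its transcripts, 3.71% also occurred in other genes, against 0% for the other 9. Itgav, which encodes αv, at chromosome 2, 83724397 to 83806916, had values of 11.5 and 10.7 FPKM in CTRL and 11.9 and 11.1 FPKM in KO. Here too the groups overlapped, with a difference of 0.04 (SE 0.078, 95% interval −0.16 to 0.24, limma adjusted p = 0.731).

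Of the other beta partners of αv, Itgb3 lay above Itgav in level and Itgb8 below it in every library. Itgb3, which encodes β3, the chain of the vitronectin receptor and of the platelet fibrinogen receptor, lies at chromosome 11, 104608000 to 104670476. Its values were 12.6 and 13.5 FPKM for CTRL 1 and CTRL 2 and 14.7 and 17.7 FPKM in KO 1 and KO 2. KO 2 was the highest and the groups did not overlap. Its difference of 0.29 (SE 0.105, 95% interval 0.02 to 0.56) did not pass the test (limma, adjusted p = 0.126), and it was 0.16 without KO 2. Itga2b, the platelet partner of β3, was at 1.30 to 1.79 FPKM, and of the platelet markers Ppbp was at 1.31 to 2.19 FPKM and Pf4 at 1.04 to 2.01 FPKM.

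Itgb8, the TGF-β-activating partner of αv, at chromosome 12, 119158022 to 119238802, was the least abundant of the 10. It was at 5.69 and 5.66 FPKM for CTRL 1 and CTRL 2 and 5.72 and 4.21 FPKM in KO 1 and KO 2, with 462 to 625 reads at least. KO 1 was level with the CTRL libraries and only KO 2 was lower. The difference was −0.17 (SE 0.140, 95% interval −0.53 to 0.18, limma adjusted p = 0.426), and it was 0.01 without KO 2.

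Ratios of FPKM between partner subunits were formed within each library, where a scaling factor of the library cancels. They are given as a description with no test. Both KO libraries were lower for Itga4 and Itgae and higher for Itgb7 and Itgb1. The ratios of Itga4 or Itgae to these beta chains were therefore bound to be lower in both KO libraries. That order adds no support beyond the single-gene values. An exact permutation test of 2 against 2 libraries cannot give a two-sided p below 0.333. The ratio of Itga4 to Itgb7 was 0.249 and 0.250 in CTRL 1 and CTRL 2 and 0.199 and 0.196 in KO 1 and KO 2. The libraries of 1 genotype were nearly the same, and the KO mean of 0.197 ± 0.00253 (SD, n = 2) was below the CTRL mean of 0.249 ± 0.00138 (SD, n = 2). This difference was −0.34 on the log2 scale, and −0.18 when each library's trend with exon length was removed.

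The ratio of Itga4 to Itgb1 was 0.545 and 0.586 in CTRL 1 and CTRL 2 and 0.425 and 0.383 in KO 1 and KO 2. Both KO libraries were lower, as the single-gene values required, with a difference of −0.49 on the log2 scale. The difference was −0.36 when the trend with exon length was removed. The ratio of Itgae to Itgb7 was 0.0821 and 0.0724 in CTRL and 0.0631 and 0.0582 in KO. Its difference was −0.35 on the log2 scale, and the order of the groups was likewise fixed by the single-gene values. Itgae and Itga4, the chains that share β7, kept nearly the same ratio to each other. It was 0.310 ± 0.0290 (SD, n = 2) in CTRL and 0.307 ± 0.0136 (SD, n = 2) in KO, with overlapping groups. The log2 difference of −0.009 became −0.12 with the exon length trend removed and 0.09 after quantile normalization. The ratio of Itgb1 to Itgb7, the alternative partners of α4, was 0.456 and 0.428 in CTRL and 0.469 and 0.511 in KO. Both KO libraries were higher, with a difference of 0.15 on the log2 scale. KO 1 lay closer to CTRL 1 than the CTRL values lay to each other, and the difference was 0.09 without KO 2.

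For LFA-1, the ratio of Itgal to Itgb2 was 0.843 and 0.882 in CTRL and 0.956 and 0.861 in KO, and the groups overlapped. The ratio of Itga6 to Itgb1 was 0.145 and 0.177 in CTRL and 0.127 and 0.129 in KO. It was lower in both KO libraries, but the nearest CTRL and KO values were closer than the 2 CTRL values. The ratios of Itgav to Itgb1 and of Itgb3 to Itgav overlapped between genotypes. The ratio of Itgb8 to Itgav was 0.494 and 0.530 in CTRL, 0.482 in KO 1 and 0.380 in KO 2, so that KO 1 lay close to CTRL 1.

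**Figure D3:**
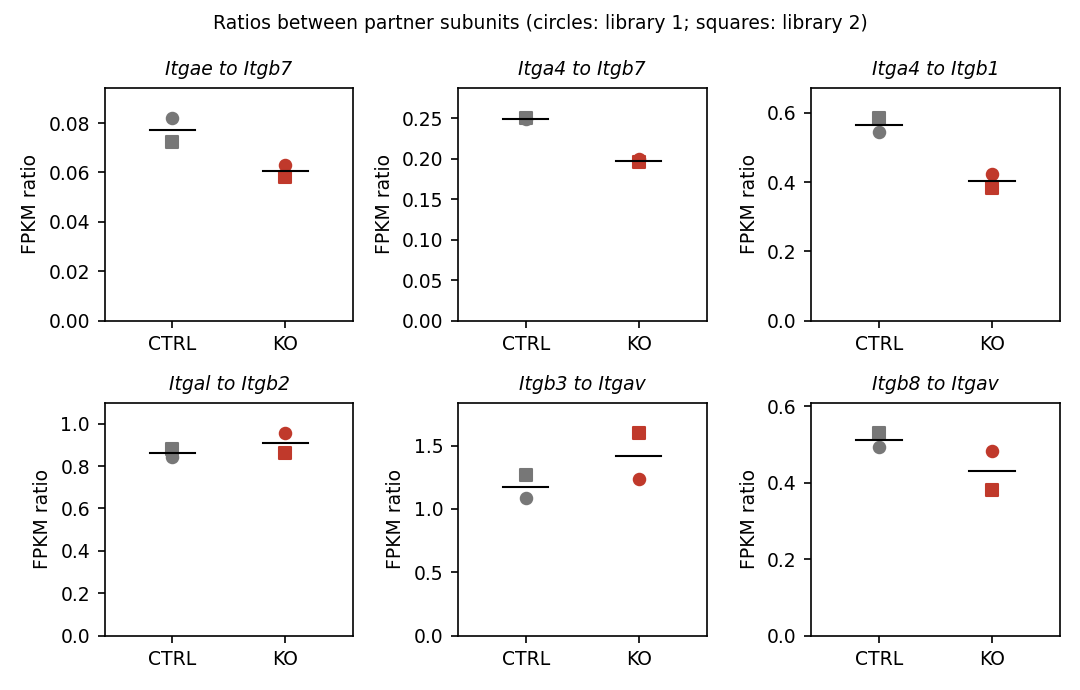
FPKM ratios between partner subunits in each library (circles library 1, squares library 2), with CTRL in grey, KO in red and the mean of each genotype as a line, on axes that start at 0. The ratio of Itga4 to Itgb7 shows the smallest spread within genotypes, at 0.249 and 0.250 in CTRL and 0.199 and 0.196 in KO.

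Of 17 other integrin subunit genes, 11 were tested and the other 6 stayed at or below 0.245 FPKM. None passed the threshold (limma), 1 was higher at an unadjusted p under 0.05 (16.3% of all genes tested), and the median difference was −0.01. That gene was Itga7, a laminin-binding chain, at 2.24 and 1.96 FPKM for CTRL 1 and CTRL 2 and 3.21 and 3.49 FPKM in KO 1 and KO 2. Its groups did not overlap, and its difference of 0.49 (SE 0.109, limma adjusted p = 0.0544) passed in 6 of the 14 other settings that tested it, limma-voom among them. Itga2, Itga3 and Itga2b, chains of collagen, laminin and fibrinogen receptors, stayed at or below 3.83 FPKM with differences of 0.29, 0.13 and 0.14. Itga5, the fibronectin receptor chain, was at 2.73 to 3.66 FPKM and Itga10 at 0.598 to 1.20 FPKM, with differences of −0.20 and −0.33. The adjusted p of these 5 genes was 0.164 to 0.486 (limma).

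Itgad, Itgax and Itgam, known from myeloid cells, and also Itga9 and Itgb5, differed more between the libraries of 1 genotype than between genotypes. Itgad, which encodes αD, a chain of splenic macrophages, was at 7.89 and 4.42 FPKM for CTRL 1 and CTRL 2 and 6.66 and 3.43 FPKM in KO 1 and KO 2. Itgax, Itgam, Itga9 and Itgb5 were likewise higher in the first library of each genotype, at 1.07 to 5.05 FPKM in all, and the groups of these 5 genes overlapped, with adjusted p of 0.488 to 0.957 (limma). All 9 myeloid markers were also higher in CTRL 1 than in CTRL 2 and in KO 1 than in KO 2. Lyz2 was at 114 and 71.9 FPKM in CTRL and 153 and 60.0 FPKM in KO. The summed myeloid markers came to 304 and 197 FPKM for CTRL 1 and CTRL 2 and 360 and 155 FPKM in KO 1 and KO 2. Of the 10 subunits, Itgav and Itgb8 were higher in the first library of both genotypes, and Itgb7, Itga4, Itga6 and Itgb3 in the second. The part of the myeloid signal in any of these values was not tested.

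**Figure D4:**
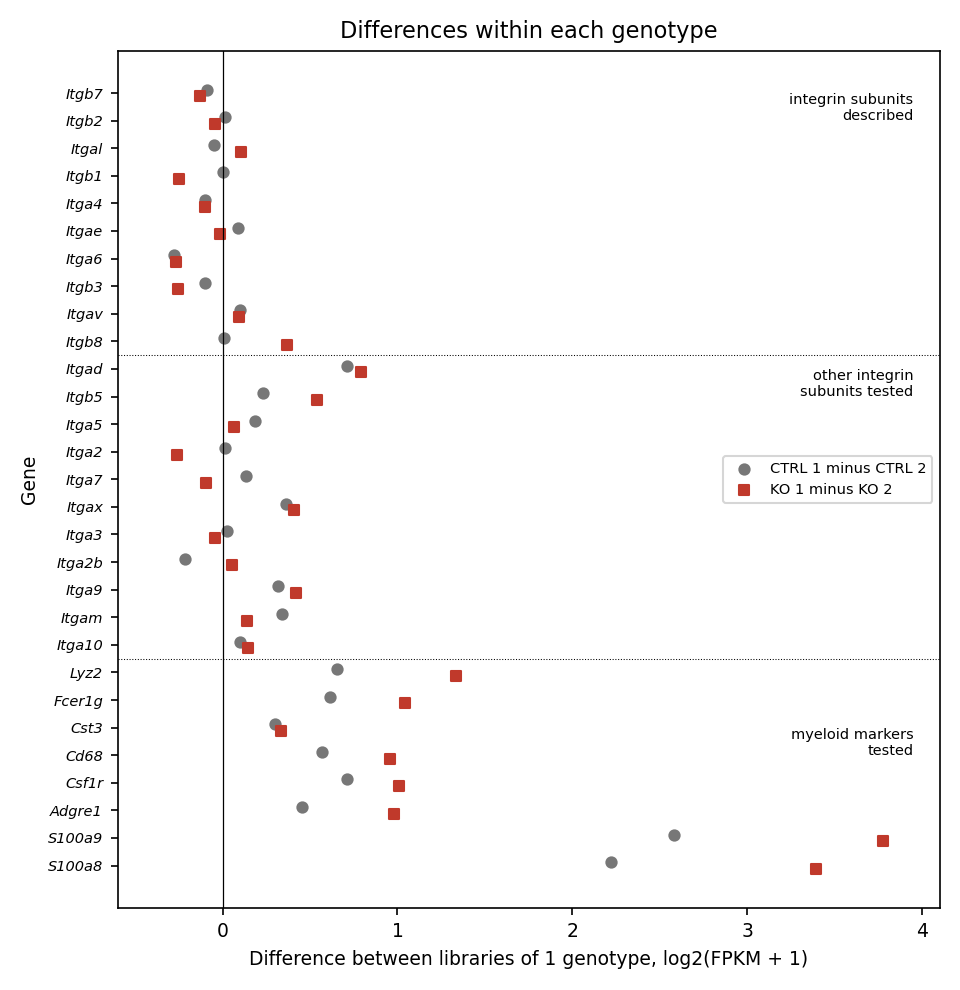
Difference between the libraries of 1 genotype on the log2(FPKM + 1) scale, library 1 minus library 2, for the 10 integrin subunits, the 11 other subunits tested and the 8 myeloid markers tested. The 10 subunits lie within −0.28 to 0.37, whereas Itgad reaches 0.79 and the myeloid markers lie to the right of 0 in both genotypes.

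Integrins are switched on from inside the cell by talin and kindlin, which bind the beta chain, under control of the GTPase RAP1. Of 40 genes for integrin activators and adaptors, 34 were tested, 3 were higher and 1 was lower in KO past the threshold (limma), and the median difference was 0.09. Among all genes tested the shares were 5.10% and 4.65%, so these counts are close to the background. Cib1, which encodes a calcium-binding protein that binds the αIIb tail, was at 43.7 and 46.7 FPKM in CTRL and 65.1 and 63.6 in KO, a rise of 0.50 (SE 0.060, limma adjusted p = 0.0346). Dok1, which encodes an adaptor that competes with talin for beta chain tails, was at 18.7 and 18.7 FPKM in CTRL and 25.2 and 25.8 in KO, a rise of 0.43 (SE 0.058, limma adjusted p = 0.0351). Zyx, which encodes the focal adhesion protein zyxin, was at 89.0 and 107 FPKM in CTRL and 137 and 149 in KO, a rise of 0.54 (SE 0.104, limma adjusted p = 0.0430). In these 3 genes every KO library was above every CTRL library, as in 29.0% of all genes tested. They were named because they had passed, so this order is no added support.

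Crk, which encodes an adaptor between focal adhesions and RAP1 activation, was the gene that fell, from 20.0 and 18.5 FPKM in CTRL to 12.2 and 14.2 in KO (difference −0.51, SE 0.094, limma adjusted p = 0.0416). The most abundant genes of the list that did not pass were Fyb, the adaptor ADAP, at 212 to 235 FPKM (difference −0.06, adjusted p = 0.574) and Fyn, a SRC family kinase, at 168 to 201 FPKM (0.22, adjusted p = 0.0577). Tln1 (talin) and Fermt3 (kindlin-3 of blood cells) were singled out after their values were seen. Tln1 was at 110 to 122 FPKM with a difference of −0.01 (adjusted p = 0.927), and Fermt3 was at 139 and 143 FPKM in CTRL and 163 and 167 in KO, a difference of 0.22 (adjusted p = 0.0569) that did not pass. By limma-voom 5 genes of the list were higher, with Fyn and Fermt3 added. That method called 863 of 11396 genes higher, against 581 of 11399 by limma. Without a filter on level none of the 4 calls remained. Without the variance trend 2 higher calls and 0 lower calls remained, and quantile normalization left 2 higher and 1 lower. All 4 calls of this list were lost when any 1 library was left out, as were nearly all calls among all genes.

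Of 13 membrane proteins that associate with integrins, all 13 were tested, with a median difference of 0.07, beside −0.02 over all genes tested. Past the threshold (limma), 1 was higher and 1 was lower, beside 5.10% and 4.65% of all genes tested. The tetraspanin gene Cd37 was higher, at 280 and 288 FPKM in CTRL and 338 and 353 in KO (0.28, SE 0.056, limma adjusted p = 0.0451), and the tetraspanin gene Tspan32 was lower, at 141 and 149 FPKM in CTRL and 114 and 118 in KO (−0.32, SE 0.058, limma adjusted p = 0.0406). Both calls were lost when any 1 library was left out and under 4 other settings, with adjusted p of 0.0506 to 0.170 for Cd37 and 0.0523 to 0.152 for Tspan32 in the settings that lost them. Quantile normalization also ended the call of Cd37, at a difference of 0.15 (adjusted p = 0.127). The most abundant others were Cd82 at 285 and 279 FPKM in CTRL and 362 and 327 in KO (0.29, adjusted p = 0.0609), and Cd53 at 214 to 235 FPKM with overlapping groups (adjusted p = 0.982).

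Ligands of these integrins were mostly at very low levels in the sorted cells. Of 29 ligand genes, 6 were tested and none passed (limma). At an unadjusted p under 0.05, 2 were higher, beside 16.3% of all genes tested. Lamc1, a laminin chain singled out after its values were seen, passed by limma-voom (0.28, adjusted p = 0.0396). The other 23 ligand genes stayed at or below 1.08 FPKM. Among them were Madcam1, Cdh1 and Fn1, which encode the ligands of α4β7, αEβ7 and α4β1. Icam1, a ligand of LFA-1, was at 43.2 and 41.2 FPKM in CTRL and 59.7 and 48.1 in KO (0.34, limma adjusted p = 0.104), and Icam2 was at 30.5 to 36.8 FPKM with overlapping groups. Vcam1, singled out after its values were seen, was at 44.8 and 23.8 FPKM for CTRL 1 and CTRL 2 and 38.3 and 20.1 FPKM in KO 1 and KO 2, higher in the first library of each genotype like the myeloid markers.

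Of 10 genes for the presentation of latent TGF-β, the substrate of αvβ8, 4 were tested and none passed (limma, and 0 by limma-voom). The median difference was 0.19, and 3 of the 4 were higher at an unadjusted p under 0.05 (limma). Among all genes tested, 16.3% were higher at an unadjusted p under 0.05. Tgfb1 was at 153 and 165 FPKM in CTRL and 186 and 176 in KO (0.18, limma adjusted p = 0.121). Lrrc32, which encodes GARP, the protein that holds latent TGF-β on Treg cells, was at 92.0 and 107 FPKM in CTRL and 123 and 122 in KO (0.30, limma adjusted p = 0.0807). In all 4 genes of the list that were tested, every KO library was above every CTRL library, beside 29.0% of all genes tested. Itgav and Itgb8 had overlapping groups.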

How the data were processed

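Per the labels and the study's methods, polyadenylated RNA of sorted splenic Treg cells was sequenced as read pairs. The authors mapped reads to mm10 (GRCm38) with HISAT2 (version 2.2.1) and counted them with featureCounts (version 2.0.1). The deposited values were FPKM for 24087 rows in 4 libraries. The count test of the authors, edgeR (version 3.34.0), needs counts and was not run on the FPKM values. The gene lengths behind the FPKM, the strand setting and the annotation were not given in the sources used here. The columns named WT and a number were taken for the same-numbered CTRL libraries.

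KO and CTRL were compared with limma (version 3.58.1, R 4.3.3; lmFit, eBayes with trend) on log2(FPKM + 1), two-sided, over the 11399 genes that reached an FPKM of 1 in 2 or more libraries, with a threshold of adjusted p under 0.05 (Benjamini-Hochberg). This scale understates differences of weakly expressed genes. Low FPKM values stood in whole-number ratios between libraries, and 19885 of 19888 genes above 0 (99.98%, tolerance 0.002) came out as whole reads. These are lower bounds. Positions, exon overlaps and lengths came from GENCODE vM21 on GRCm38. Genes named were the 10 subunits, Setd2, the other integrin subunits tested and, from each related list, up to 8 genes past the threshold and the 2 most abundant that did not pass. The members, the lists and the tests were chosen with earlier results of these data known. Scripts were tested on simulated data. Python 3.11.15, numpy 2.4.6 and pandas 2.3.3 were used for the rest. Limma-voom on the recovered reads, a correction for the trend of each library with exon length and the alternatives for the ratios were added after the data had been seen.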

Additional observations from a re-analysis of the deposited data

How the results depend on the processing

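No integrin subunit passed the threshold under 14 of 15 alternatives, and Itga4 passed as lower under quantile normalization (1 gene, −0.31). The median difference of the 10 subunits moved to 0.016 under quantile normalization. The sign turned for Itgav without CTRL 2 (−0.0077) and without KO 1 (−0.0024), for Itga6 without CTRL 2 (0.084), without KO 1 (0.078) and with the exon length trend removed (0.021), for Itgb2 under quantile normalization (−0.0074) and for Itgb8 without KO 2 (0.0090). Without 1 library the difference was −0.0077 to 0.094 for Itgav and −0.19 to 0.084 for Itga6. With the exon length trend removed, the log2 ratio difference was −0.18 for Itga4 to Itgb7, −0.36 for Itga4 to Itgb1 and −0.12 for Itgae to Itga4. Quantile normalization gave −0.35 for Itga4 to Itgb7.

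Of the genes tested, KO was higher in 581 and lower in 530. Leaving out 1 library left 0 to 1 higher and 0 to 1 lower, where the lone library was assumed to vary like the other genotype. Without a filter both counts were 0. Without the variance trend 315 were higher, limma-voom called 1040 lower, and removal of the exon length trend left 325 lower. The labels give libraries with the same number nothing else in common. Their deviations across genes were correlated, with Pearson 0.34 and Spearman 0.055. A block for the replicate number gave 968 higher and 805 lower calls and called none of the 10 subunits. The causes of these shifts were not tested.

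The precision is set by 2 pooled libraries per genotype, with standard errors of 0.052 to 0.140 for the 10 subunits. Itgb8 rested on the fewest reads, 462 to 625 per library.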
